A study of Mus musculus with 4 samples.

Results

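Interferon-stimulated genes (ISGs) are the genes that a cell switches on when interferon reaches it. The 39 followed here were taken by symbol from a list of antiviral effectors, immunity-related GTPases, transcription factors and RNA or DNA sensors, and all 39 were among the 31053 genes measured. They were measured by single-cell RNA sequencing of hearts from 6-week-old mouse offspring. The dams were fed without limit while pregnant and while nursing. Their diet was rich in resistant starch in the high-fibre group and poor in it in the control-diet group. Offspring of both groups were weaned at 3 weeks onto the same standard chow. Each group gave 2 libraries. Per the labels, hearts were digested by perfusion with collagenase IV (2 mg/mL) and dispase II (1 mg/mL), and cells were sorted as live, metabolically active and nucleated before 10x 3′ v2 capture. The labels name no strain or sex and do not say how many animals made a library, so p-values measure only how far these libraries vary, which may be technical variation.

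Type I interferons bind the receptor IFNAR and activate the kinases JAK1 and TYK2. These lead to a factor that includes STAT2 and IRF9 and binds interferon-stimulated response elements (ISREs). Interferon gamma binds another receptor and acts mainly at gamma-activated sites (GAS). IFIT and OAS-family proteins recognise or destroy viral RNA, viperin (Rsad2) makes a chain-terminating nucleotide, IRG and GBP GTPases attack the vacuoles of intracellular parasites, and Usp18 dampens receptor signalling. Groups of endothelial cells that express such genes without infection are known in mouse tissues.

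The libraries held 56582577 and 69600492 UMIs (high-fibre 1 and 2) and 59317334 and 27577599 UMIs (control-diet 1 and 2). A total of 884 of 24729 distinct barcodes occurred in more than 1 library. In most of these the smaller copies held a few percent of the UMIs of the largest copy, and the largest copy was usually a control-diet 2 cell. The 1982 copies at or below 1/10 of the largest copy's UMIs were removed before all results (9.28%, 7.95%, 6.33% and 3.30% of the barcodes of the 4 libraries in that order). They held at most 0.894% of a library's UMIs. After removal of doublets, 20768 cells were kept, with library medians of 7022.5 to 8415 UMIs. Marker genes that are no ISG gated 6617 endothelial cells (Pecam1, Cdh5), 6218 fibroblasts (Col1a1, Dcn), 3076 macrophages (C1qa), 1000 pericytes (Kcnj8, Vtn), 921 B cells (Cd79a) and 419 T cells (Cd3e). All 6 check markers of each type, not used in its gate, were seen in more than 50% of its cells.

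Promoter sequence was matched for 30 of the 39 genes in RefSeq (GRCm38.p6), and the other 9 were Iigp1, Gbp4, Gbp6, Mx1, Usp18, Ifi27l2a, Zbp1, Rtp4 and Parp14. The ISRE core, searched as GAAANNGAA on both strands (TTCNNTTTC in reverse), lay in the 250 bases before the start of 18 of the 30 genes (60%). It lay in that window of 2211 of 27025 genes in the same table (8.18%). The GAS motif TTCNNNGAA, which reads alike on both strands, lay in 10 of the 30 (33.3%) and in 2197 of all 27025 (8.13%). The ISRE core was absent from this window in Ifit2, Ifi44, Cmpk2, Oasl1, Oasl2, Irf1, Irf7, Irf9, Ddx58, Ifi35, Ifitm3 and Xaf1. Stretches around the matches are shown for the genes on which the cell-to-cell results turn (Ifit1, Ifit3, Rsad2 and Isg15) and for 2 GBP genes as examples of the GTPases. They read 5′ to 3′ along the gene's strand, and capitals mark the ISRE core matches, which share letters where they overlap. The positions are chr19:34640775-34640843 (Ifit1, plus strand), chr19:34583397-34583465 (Ifit3, plus), chr12:26456533-26456601 (Rsad2, minus), chr4:156200846-156200914 (Isg15, minus), chr3:142620575-142620643 (Gbp2, plus) and chr3:142559976-142560043 (Gbp3, plus).
Ifit1: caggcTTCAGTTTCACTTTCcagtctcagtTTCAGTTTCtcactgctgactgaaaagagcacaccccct
Ifit3: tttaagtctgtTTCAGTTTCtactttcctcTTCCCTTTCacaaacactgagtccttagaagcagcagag
Rsad2: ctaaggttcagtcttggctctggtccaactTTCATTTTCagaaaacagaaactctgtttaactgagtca
Isg15: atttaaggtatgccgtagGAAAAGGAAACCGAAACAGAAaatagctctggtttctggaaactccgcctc
Gbp2: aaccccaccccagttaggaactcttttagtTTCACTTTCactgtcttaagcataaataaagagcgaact
Gbp3: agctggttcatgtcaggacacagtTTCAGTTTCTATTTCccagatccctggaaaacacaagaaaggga
Within the stretches shown, Ifit1 and Isg15 each hold 3 matches, Ifit3 and Gbp3 hold 2, and Rsad2 and Gbp2 hold 1. The stretch of Ifit3b, at chr19:34607793-34607861, is letter for letter that of Ifit3.

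Many of these genes stand in clusters of relatives. The 4 Ifit genes lie in a row on chromosome 19 between 34550694 and 34650009 (GRCm38, GENCODE M21), and Gbp5, Gbp7, Gbp3 and Gbp2 lie in a row on chromosome 3 between 142493978 and 142638008. Gbp4 and Gbp6 lie on chromosome 5 with the 3 Oas-family genes, and all IRG genes except Iigp1 lie on chromosome 11. Neighbours can share sequence. The last 500 bases of Tgtp1 and Tgtp2, where 3′ tags fall, share every 50-base window, so the split of counts between them is uncertain. Ifit3 shares 14.9% of such windows with Ifit3b, and Igtp and Irgm2 overlap on the same strand. The values of these pairs are uncertain to that degree.

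Of the 6 gated types, endothelial cells were the highest for most ISGs. Levels are in CPM, the UMIs of a gene per 1000000 UMIs summed over a cell type in a library. A 3′ tag gives 1 UMI per captured molecule whatever the gene's length, so they were not divided by length. Each type was set against the mean of the other 5 with edgeR's quasi-likelihood test with Benjamini-Hochberg adjustment over 13015 genes and the library as a block. In endothelial cells 36 of 39 ISGs were higher and 1 was lower, while 38.0% of all genes were higher and 27.1% were lower. The median log2 fold was 1.93 over the ISGs and 0.07 over all genes. Endothelial cells were the highest type for 32 of the 39. In 26 of these their lowest library lay above every library of the type with the second-highest mean. The summed level of all 39 did not separate the types in this way. It was 5470, 5585, 5955 and 6784 CPM in endothelial cells and 4975, 5506, 5025 and 6378 CPM in macrophages (high-fibre 1 and 2, then control-diet 1 and 2), which overlap. Without Ifitm3 the means were 3805 and 3914 CPM. Without Ifitm3, Bst2 and Ifi27l2a, the most abundant of the ISGs, they were 2973 CPM in endothelial cells and 1218 CPM in macrophages, and the libraries did not overlap. In all of these sums, fewer cells that transcribe a gene and less RNA per cell cannot be told apart.

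**Figure D1:**
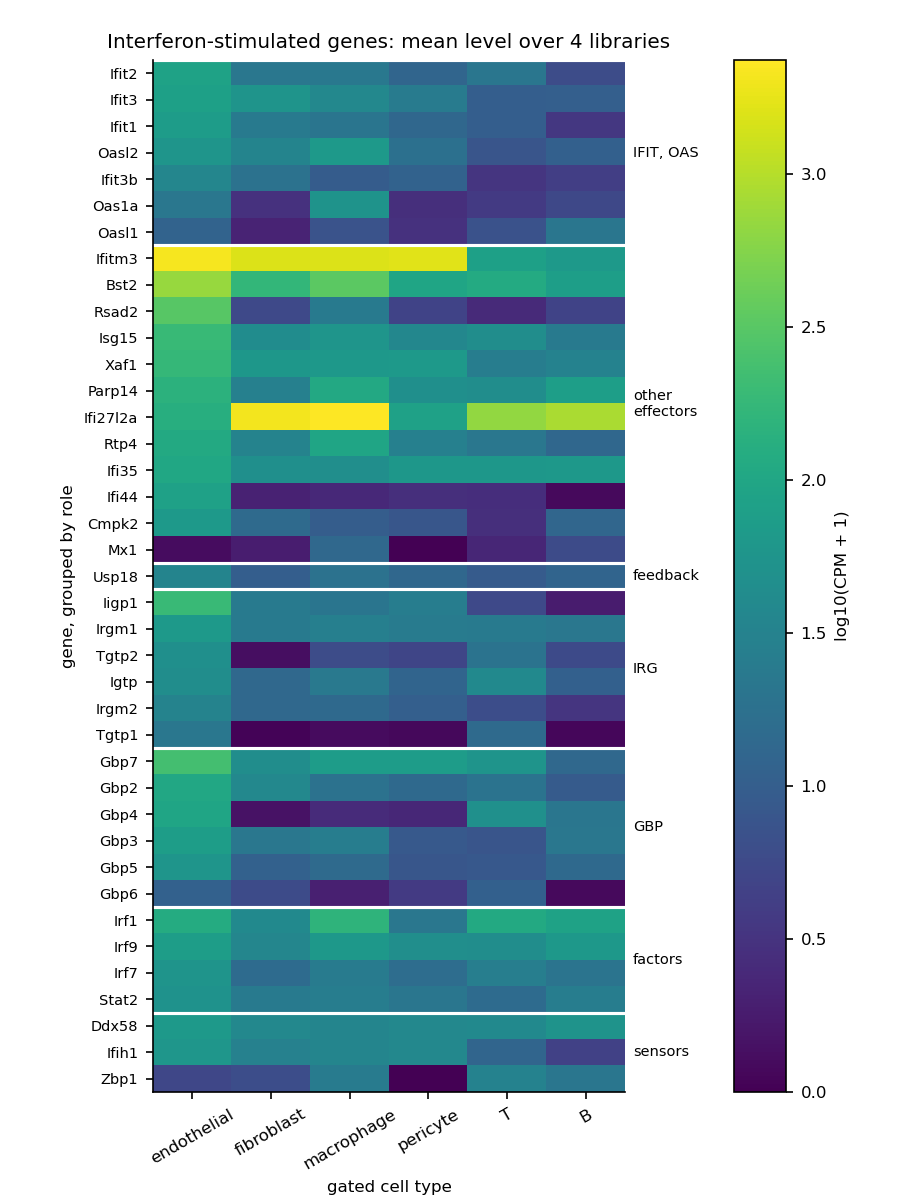
Mean level over 4 libraries of each ISG (vertical axis, grouped by role) in 6 gated cell types (horizontal axis), coloured as log10 of CPM + 1. The endothelial column is the brightest for 32 of the 39 genes, while Ifitm3 is bright in 4 types and Ifi27l2a is brightest in macrophages.

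Antiviral effectors gave some of the largest endothelial folds. Rsad2, which encodes viperin, stood at 280 and 258 CPM in the high-fibre libraries and 396 and 329 CPM in the control-diet libraries. Its mean was 22.6 CPM in macrophages, 4.57 CPM in fibroblasts and 1.52 CPM in T cells, so no library of another type came near (log2 fold 5.86, SE 0.19, adjusted p = 1.61e-14). Ifi44, an interferon-induced cytoplasmic protein, averaged 83.3 CPM in endothelial cells and under 2 CPM in fibroblasts (1.11), macrophages (1.41) and T cells (1.74), a log2 fold of 6.29 (SE 0.15, adjusted p = 3.96e-27). All 7 IFIT and OAS-family genes were higher in endothelial cells (median log2 fold 1.94). Ifit1 had the largest of these folds at 2.79.

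The GTPases were also highest in endothelial cells. All 6 GBP genes (median log2 fold 2.35) and all 6 IRG genes (median 2.73) were higher in endothelial cells. Gbp7 stood at 212, 214, 221 and 271 CPM in high-fibre 1, high-fibre 2, control-diet 1 and control-diet 2, with a log2 fold of 2.29. Gbp4 averaged 95.1 CPM in endothelial cells, 48.1 CPM in T cells and 0.44 CPM in fibroblasts, and its log2 fold was 4.48. Tgtp1 averaged 20.8 CPM in endothelial cells, 13.5 CPM in T cells and 0.06 CPM in fibroblasts. Both genes were also higher in T cells than in the mean of the other types.

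Ifitm3, a membrane protein that blocks virus entry, carried the largest single share of ISG UMIs. It stood at 1977, 2087, 2198 and 2312 CPM in the endothelial libraries, in the same order, and its log2 fold was 2.10 (SE 0.14, adjusted p = 4.17e-10). Its levels were 1580, 1606, 1518 and 1559 CPM in fibroblasts and 1450, 1664, 1729 and 1722 CPM in pericytes, and it was as abundant in macrophages at 1432, 1578, 1502 and 1717 CPM. Every library of these 4 types lay above every T cell and B cell library. It made up 36.0% of the summed ISG level of endothelial cells, 65.3% of that of pericytes and 3.84% of that of B cells. Bst2 (tetherin, which holds budding virus on the cell) stood at 615, 636, 689 and 866 CPM in endothelial cells. No library of another type reached these values, the nearest being macrophages at 305, 343, 320 and 377 CPM.

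Ifi27l2a, a small interferon-induced mitochondrial protein, was the 1 ISG lower in endothelial cells (log2 fold -2.58, SE 0.10, adjusted p = 2.30e-21). It stood at 2019, 2408, 2082 and 2929 CPM in macrophages, at 1731, 2029, 2128 and 2363 CPM in fibroblasts, and at 117 to 159 CPM in endothelial cells. Mx1 and Zbp1 did not pass the test there. Mx1, a dynamin-like antiviral GTPase, averaged 12.6 CPM in macrophages and 0.30 CPM in endothelial cells.

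Macrophages came second. In them 29 ISGs were higher and 3 (Gbp4, Gbp6 and Ifi35) were lower, against 37.4% and 27.3% of all genes, and the median log2 fold was 0.65 against 0.03 over all genes. Oas1a, which makes the messenger that activates RNase L, averaged 53.0 CPM in macrophages and 20.8 CPM in endothelial cells. Irf1, a transcription factor that responds fast to interferon gamma and to stress, stood at 240, 106, 175 and 95.4 CPM in macrophages in the library order used above. Both libraries with repeat number 1 were high and both with number 2 were low.

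Fibroblasts had 12 ISGs higher and 19 lower, against 43.2% and 30.5% of all genes, with a median of -0.28. Apart from Ifitm3 and Ifi27l2a, whose log2 folds were 1.59 and 2.21, their ISG levels were modest. Xaf1 stood at 50.2, 65.2, 52.1 and 76.1 CPM and Bst2 at 149, 166, 172 and 197 CPM. Pericytes had 2 higher (Ifitm3 1.29 and the RNA sensor Ifih1 0.62, both log2) and 26 lower, against 34.2% and 26.5%, with a median of -1.02. Ifi27l2a stood at 59.6, 95.9, 79.7 and 102 CPM in pericytes, Bst2 at 82.0, 105, 99.2 and 96.1 CPM, and Gbp7 at 65.0, 75.9, 75.3 and 71.7 CPM.

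T cells had 8 ISGs higher and 12 lower, against 22.0% and 27.2% of all genes, with a median of -0.22. The 8 were Zbp1, Gbp4, Gbp6, Tgtp1, Tgtp2, Igtp, Irf1 and Ifi27l2a, of which 5 are IRG or GBP GTPases. Their Ifi27l2a level was 739, 668, 582 and 670 CPM, Irf1 was at 160, 81.7, 118 and 83.7 CPM, and Bst2 was at 114, 129, 80.8 and 130 CPM. B cells had 8 higher and 18 lower, against 25.2% and 29.3%, with a median of -1.02. Their leading genes were Ifi27l2a at 617, 813, 793 and 1305 CPM, Irf1 at 93.7, 71.4, 76.6 and 104 CPM, Parp14 at 58.1, 76.0, 87.7 and 87.0 CPM and Bst2 at 60.7, 80.6, 83.1 and 83.6 CPM. Iigp1, one of the strongest endothelial genes at a mean of 190 CPM, had a log2 fold of -4.80 in B cells.

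The same comparison was made for listed pathway genes outside the 39. Endothelial cells were higher for 25 and lower for 5 of 33 other interferon-induced genes, and higher for 10 of 11 antigen presentation genes. Receptors and kinases gave 4 higher and 3 lower of 9, sensors and adaptors 5 and 4 of 11, and negative regulators 1 and 3 of 6, beside the 38.0% and 27.1% of all genes given above. Macrophages were higher for 28 of the 33 other interferon-induced genes, 9 of 11 antigen presentation genes, 6 of 9 receptors and kinases, 8 of 11 sensors and adaptors and 4 of 6 negative regulators, beside 37.4% of all genes. The ligands were scarce. Ifnb1 (interferon beta) gave 20, 7, 14 and 10 UMIs in macrophages and at most 1 UMI in any library of another type, and Ifna1, Ifna2, Ifna4, Ifna5, Ifne, Ifnl2 and Ifnl3 gave none in the gated cells. Ifng (interferon gamma) was found mainly in T cells, with 79 and 23 UMIs in the high-fibre libraries and 11 and 1 in the control-diet libraries.

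ISG transcripts were unevenly spread among cells of the same type. To describe this at equal depth, each cell was thinned to 2000 UMIs, and cells with at least 2 UMIs summed over 5 seed genes (Ifit1, Ifit2, Ifit3, Ifit3b and Rsad2) were called carriers. Among 6333 endothelial cells deep enough, 1629 were carriers (25.7%), 3284 had no seed UMI (51.9%), 424 had at least 5, and 1 cell had 53. The carriers held 82.0% of the endothelial seed UMIs. Carriers were chosen by at least 2 of these same UMIs, so a high share is built in and does not measure unevenness. The variance of the seed UMIs was 4.25 times their mean, where independent sampling at 1 common rate would give equality. Rsad2 alone gave a ratio of 2.76, above 98.9% of 8139 genes read in the same cells, whose median ratio was 1.05. This rank was not matched for level. The genes had a mean of at least 0.02 thinned UMIs per cell, and Rsad2 had 0.69. Ifitm3, at a mean of 4.34, gave a ratio of 2.48, above 98.7% of the genes.

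**Figure D2:**
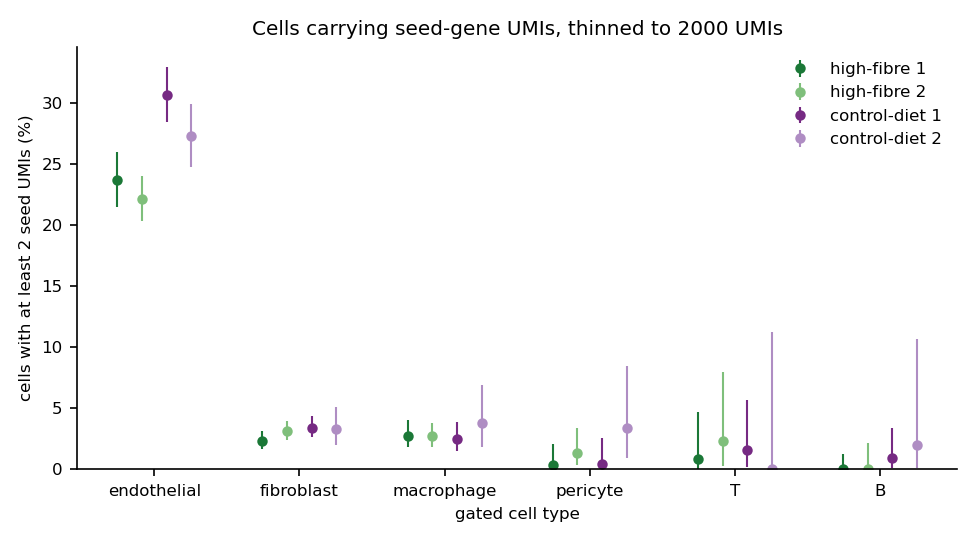
Share of cells with at least 2 seed UMIs (vertical axis, percent) after thinning to 2000 UMIs, for each gated type (horizontal axis) and library (colour), with exact 95% binomial intervals. The 4 endothelial libraries sit between 22.1% and 30.7%, and every other type lies below 4% in each library.

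Outside the endothelium carriers were few. Rsad2 gave a mean of 316 of the 589 seed CPM in endothelial cells and 22.6 of 109 CPM in macrophages. Ifit3 differed less, at 81.2 CPM in endothelial cells and 54.6 CPM in fibroblasts. At a cut of 2 UMIs the share of carriers therefore also reads the level of Rsad2. Carriers made up 184 of 6165 fibroblasts (2.98%), 83 of 3026 macrophages (2.74%), 10 of 908 pericytes (1.10%) and 5 of 361 T cells (1.39%). B cells, the type with the lowest share, gave 3 of 733 (0.409%), and all types were read at the same thinned depth. The unthinned medians were 5338 UMIs in endothelial cells and 4020 in B cells. In macrophages the richest 1% of cells (30 cells) held 52.8% of the seed UMIs. The matching shares were 34.7% in fibroblasts (62 cells) and 11.8% in endothelial cells (63 cells). They were 56.8% in pericytes (9 cells), 37.2% in T cells (4 cells) and 50% in B cells (7 cells). A low mean raises this share by itself. Seed UMIs per thinned cell averaged 1.25 in endothelial cells, 0.24 in fibroblasts and 0.21 in macrophages, so these shares do not compare concentration between types. Carriers held 71.1% of the seed UMIs in macrophages, 53.4% in fibroblasts, 41.9% in T cells (5 carriers) and 34.6% in B cells (3 carriers). This share also depends on the mean and on the cut of 2 UMIs, so it does not compare concentration between types either.

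Endothelial carriers also had higher levels of the ISGs that did not choose them. UMIs of thinned carriers and of all other thinned endothelial cells were summed per library and compared with edgeR's quasi-likelihood test, with the library as a block and Benjamini-Hochberg adjustment over 9438 genes. Of the 34 ISGs that are not seeds, 33 could be tested and 31 were higher in carriers and 1 was lower, where 3.17% of all genes were higher and 3.39% lower. The median log2 fold was 1.25 over these ISGs and -7.79e-05 over all genes. All 6 IRG genes, all 6 GBP genes, all 3 sensors, Usp18 and the 3 OAS-family genes were among the higher.

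Isg15, a ubiquitin-like protein joined to other proteins under interferon, stood at 461, 409, 489 and 529 CPM in carriers of high-fibre 1, high-fibre 2, control-diet 1 and control-diet 2. In the other cells of these libraries it stood at 86.7, 92.6, 87.1 and 84.0 CPM, so the sets lay far apart in all 4 libraries (log2 fold 2.43, SE 0.07, adjusted p = 3.90e-41). Usp18, which removes Isg15 and restrains the receptor, stood at 78.1, 84.4, 80.4 and 100 CPM in carriers and at 13.0, 19.3, 18.0 and 9.85 CPM in the others (log2 fold 2.45). These 2 rose most among the ISGs above a mean of 20 CPM. Oasl1, below that mean, had a log2 fold of 3.39. Ifi44 followed at 2.00, then Oasl2 (1.80), Cmpk2 (1.76), Tgtp1 (1.47), Oas1a (1.46), Irf7 (1.43), Igtp (1.37) and Rtp4 (1.36), all as log2 folds and all higher in 4 of 4 libraries. The 2 most abundant ISGs rose least, Ifitm3 by 0.40 and Bst2 by 0.48. Irf1 did not pass (log2 fold 0.21, adjusted p = 0.188). Ifi27l2a was lower by a small margin (log2 fold -0.36, adjusted p = 0.0192), in 3 of 4 libraries, and it did not pass under DESeq2, with carriers at 3 or more seed UMIs, or in the 3 largest endothelial clusters alone.

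**Figure D3:**
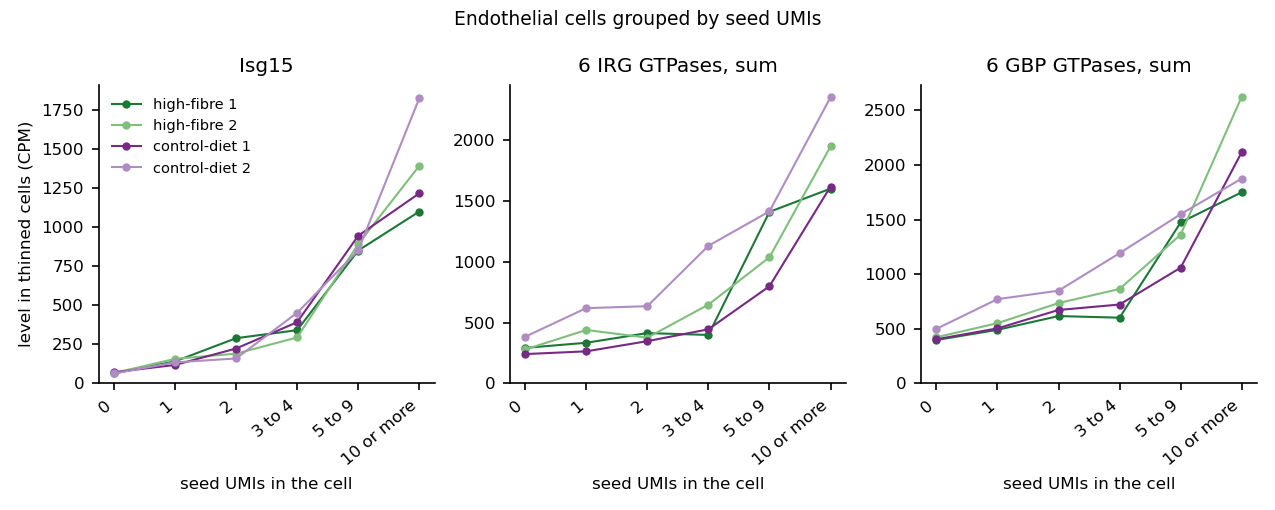
Level of Isg15, of the 6 IRG genes summed and of the 6 GBP genes summed (vertical axes, CPM in thinned cells) in endothelial cells grouped by their number of seed UMIs (horizontal axis), 1 line per library. In every library all 3 measures are higher at 10 or more seed UMIs than at 0, though some lines dip between neighbouring groups, and over all libraries Isg15 goes from 66.4 CPM at 0 seed UMIs to 1398 CPM at 10 or more.

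With all libraries pooled, the rise was graded over the number of seed UMIs. Cells with 0, 1, 2, 3 to 4, 5 to 9 and 10 or more seed UMIs had Isg15 levels of 66.4, 139, 216, 363, 890 and 1398 CPM. The sum of the 34 genes that are not seeds was 4381, 5241, 5923, 6928, 11266 and 16028 CPM in these groups, which held 3284, 1420, 647, 558, 336 and 88 cells. Each step up in seed UMIs came with a higher level in both pooled measures. In single libraries the IRG sum dipped at 1 step in each high-fibre library, for example from 439 to 376 CPM between 1 and 2 seed UMIs in high-fibre 2. Median depth before thinning was 5596 UMIs in the lowest group and 5030 in the highest.

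Of the 299 genes higher in carriers, 227 were neither ISGs of the 39 nor on a pathway list. These include relatives of listed genes, such as Ifi207, Gbp9 and Parp10, and capillary genes such as Aplnr, Car4 and Cd36. Among the genes outside the 39 with the largest rise at a mean of at least 20 CPM were Ifi208 (log2 fold 1.77), the checkpoint ligand Cd274 (1.59), Ifi204 (1.54), the exonuclease Isg20 (1.38), Herc6 (1.36), Ifi47 (1.27), the kinase PKR gene Eif2ak2 (1.23), Olfr1396 (1.18) and Trim34a (1.14). Of 64 listed pathway genes tested, 41 were higher and none lower. They included 29 of 30 other interferon-induced genes, 10 of 11 antigen presentation genes, Dhx58 alone of 8 sensors and adaptors, and 0 of 6 negative regulators. Cd274 stood at 88.6, 80.0, 54.3 and 86.4 CPM in carriers and at 24.2, 25.6, 22.7 and 30.7 CPM in the other cells, without overlap. The largest falls were in Hbb-bt (beta globin, log2 fold -4.06), Fgl2 (-2.93), Igfbp5 (-2.55), Npr3 (-2.54) and Plvap (-2.47). Npr3 and Plvap mark endocardium, the lining of the chambers. Npr3 averaged 20.9 CPM in carriers and 118 CPM in the other cells.

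**Figure D4:**
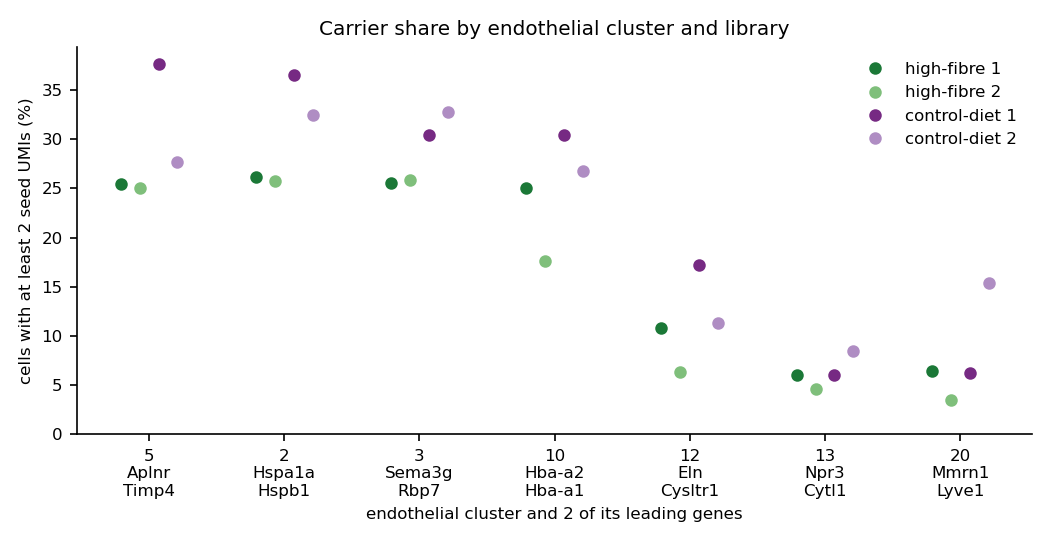
Share of cells with at least 2 seed UMIs (vertical axis, percent) in each endothelial cluster (horizontal axis, with 2 of its leading genes), 1 point per library. Clusters labelled Aplnr, Hspa1a and Sema3g hold 28.1% to 29.6% over all libraries, and those labelled Npr3 and Mmrn1 hold about 6% (6.09% and 5.97%).

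Carriers were common in most endothelial clusters and rare in 2 of them. The share was 29.6% in the cluster led by Aqp1 and Aplnr, 29.3% in that led by Hspa1b and 28.1% in that led by Hey1 and Sema3g, the 3 largest. It was 25.5% in a cluster led by globin genes and 11.2% in a cluster led by Fmo2 and Eln. The cluster with Npr3 and Cytl1 among its leading genes gave 6.09%, and that led by Ccl21a, Mmrn1 and Lyve1, genes of lymphatic vessels, gave 5.97%. Within the 3 largest clusters alone, 31 of 33 ISGs were still higher in carriers and none was lower, with a median log2 fold of 1.11. There 145 genes were higher and 62 lower of 8702, Hbb-bt had a log2 fold of -2.09, and Igfbp5 did not pass (-0.42).

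No ISG passed the test for maternal diet in any cell type. Each type was fitted alone with edgeR's quasi-likelihood test with Benjamini-Hochberg adjustment over all its genes, 2 libraries against 2. In endothelial cells 0 of 38 tested ISGs were called, where 0.0899% of all genes were (11 of 12232), and DESeq2 also called 0. The folds nevertheless leaned 1 way. Of the 38, 35 had a fold below 0, meaning lower in the high-fibre libraries, and the median log2 fold was -0.23 against -0.00328 over all genes. At an unadjusted p under 0.05 stood 11 ISGs, all lower, against 5.52% of all genes. For 17 of the 38 both high-fibre libraries lay below both control-diet libraries, against 17.5% of all genes. None of the 38 had both above, against 16.6% of all genes.

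**Figure D5:**
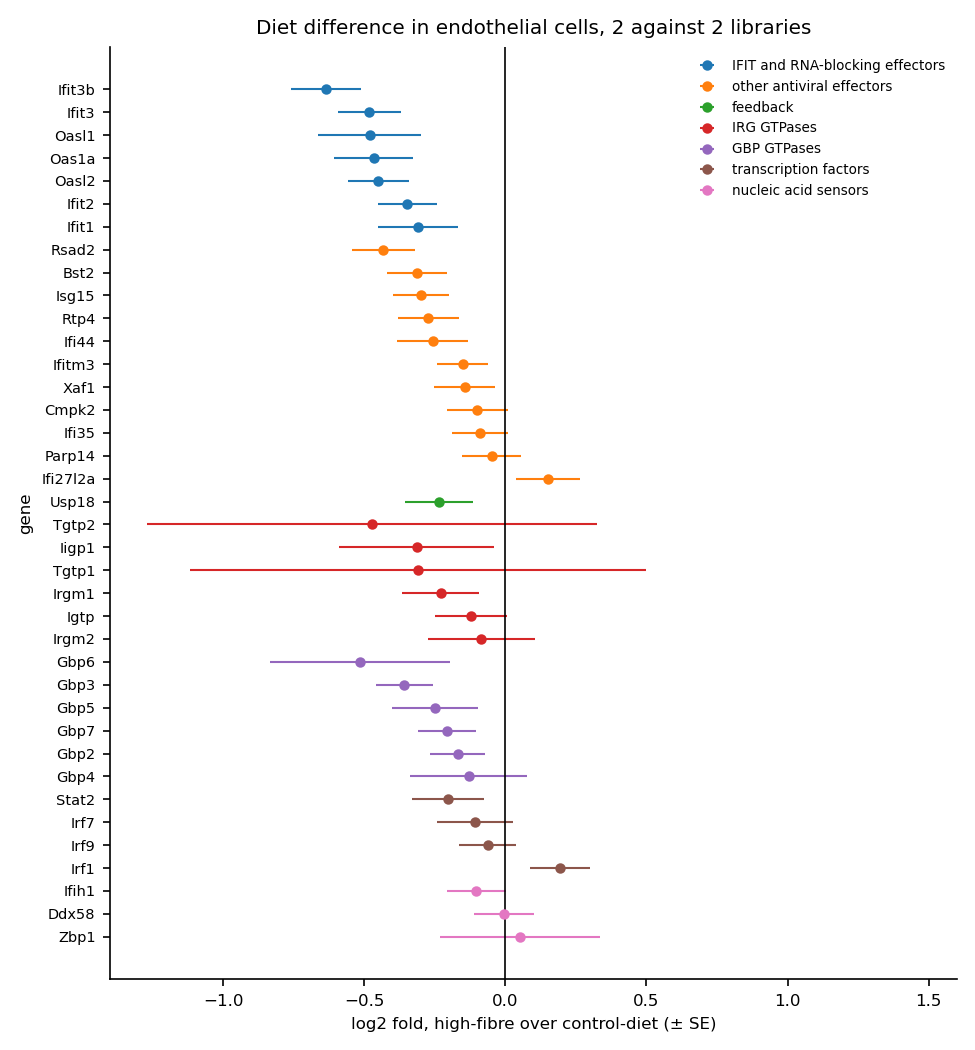
Log2 fold of high-fibre over control-diet in endothelial cells (horizontal axis, with standard errors from edgeR) for the 38 ISGs tested (vertical axis), coloured by role. The points of 35 genes lie left of 0, and none passed the adjusted threshold.

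The IFIT and OAS-family genes had the lowest median fold of the roles. All 7 were below 0, with a median log2 fold of -0.47. Values here are CPM after TMM normalization, in the order high-fibre 1, high-fibre 2, control-diet 1, control-diet 2. Ifit3b stood at 27.9, 26.4, 37.7 and 46.7 (log2 fold -0.64, SE 0.13, adjusted p = 0.0748 in edgeR), and Ifit3 stood at 71.2, 64.4, 85.0 and 104 (-0.48, adjusted p = 0.189 in edgeR). Oas1a stood at 18.2, 16.7, 22.0 and 26.2, a log2 fold of -0.47. In each of these 3 the high-fibre and control-diet values did not overlap. Rsad2 likewise did not overlap, at 288, 251, 399 and 327 (log2 fold -0.43, adjusted p = 0.269 in edgeR). Ifit1 did not overlap either, though high-fibre 1 at 75.7 came close to control-diet 1 at 78.7.

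The IRG values were decided by control-diet 2. Tgtp2 stood at 37.8, 39.4, 25.7 and 83.1, so the control-diet libraries were both the lowest and the highest (log2 fold -0.47, SE 0.80). Iigp1 stood at 166, 172, 162 and 259, with only control-diet 2 apart. Without control-diet 2 the median log2 fold of the 38 ISGs was -0.05, and 23 of 38 were below 0. Without control-diet 1 the median was -0.33, and 36 of 38 were below 0. The size of the lean therefore rests on which control library is kept.

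The share of endothelial carriers was also lower in the high-fibre libraries. It was 23.7% (exact Clopper-Pearson 95% interval 21.48% to 25.996%, counting error only) in high-fibre 1 and 22.1% (20.4% to 24.0%) in high-fibre 2. In control-diet 1 it was 30.7% (28.5% to 33.0%), and in control-diet 2 it was 27.3% (24.8% to 29.9%). The group means were 22.9% ± 1.09 and 29.0% ± 2.40 (SD, n = 2), 6.08 percentage points apart. The libraries of the 2 groups did not overlap, but 2 against 2 is too few for an exact test to pass 0.05, so none is given. The gap was 7.09 points within the 3 largest clusters, 3.53 points at 1000 UMIs and 3.97 points among cells called female from Xist and Y-linked UMIs. In that last setting the groups overlapped, with high-fibre 1 at 28.9% and control-diet 2 at 26.6%. Cells called male gave 20.6% and 20.3% in high-fibre 1 and 2 and 26.9% and 25.8% in control-diet 1 and 2. The libraries differed in sex mix. In the same order, cells called female and male numbered 349 and 659, 902 and 686, 1198 and 264, and 533 and 426. In each library the share was higher in female cells, and the part of sex in the diet results was not tested. In cells not thinned the gap was 11.9 points, a value that also reads depth. Endothelial medians were 4892.5 and 4792 UMIs in the high-fibre and 5825.5 and 6402.5 UMIs in the control-diet libraries. Markers of other cells differed between the endothelial sums. Erythroid markers summed to 7348, 2131, 1214 and 1471 CPM (4 of 5 genes higher in both high-fibre libraries), macrophage markers to 40.6, 73.1, 25.4 and 27.8 CPM (5 of 6 higher) and B cell markers to 11.1, 15.0, 5.98 and 3.33 CPM (5 of 6 higher). Lymphatic markers summed to 194, 235, 157 and 111 CPM and endocardial markers to 374, 394, 447 and 423 CPM, and their part in these results was not tested.

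In fibroblasts 0 of 37 ISGs were called, against 0.0298% of all genes, 3 stood at an unadjusted p under 0.05 against 6.36% of all genes, and the median log2 fold was -0.01. The largest folds above 20 CPM were those of Irf1 at 59.5, 31.5, 36.6 and 30.2 CPM (log2 0.42), Isg15 at 46.4, 47.8, 42.3 and 35.8 CPM (0.26), Ifi27l2a at 1758, 2017, 2125 and 2348 CPM (-0.24) and Bst2 at 151, 165, 172 and 196 CPM (-0.21). Isg15 lay above and Bst2 below the control-diet libraries without overlap, which is the opposite order for the 2 genes. Of the 37 ISGs, 3 lay below and 3 above in this way, against 17.8% and 17.6% of all genes. In macrophages 0 of 36 were called, where edgeR called 0% of all genes (0 of 11416) and DESeq2 called 1 gene. There 2 ISGs and 4.02% of all genes stood at an unadjusted p under 0.05, and the median was -0.10. Irf1 at 251, 102, 177 and 93.9 CPM (log2 0.37) overlapped, and Gbp7 at 63.6, 65.7, 67.0 and 90.2 CPM (-0.27) did not. Of the 36 ISGs, 6 lay below and 2 above without overlap, against 17.4% and 15.8% of all genes. The RNA sensor gene Ddx58 at 26.03, 33.0, 29.9 and 42.5 CPM (-0.26) and Gbp3 at 22.9, 24.5, 24.1 and 32.9 CPM (-0.24) overlapped.

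In pericytes 0 of 27 were called, against 0.129% of all genes, 2 stood at an unadjusted p under 0.05, against 5.20% of all genes, and 24 had a fold below 0 with a median of -0.24. Folds below 0 numbered 13 of 27 without control-diet 2 and 14 of 27 without high-fibre 1. Endothelial markers in the pericyte gate summed to 2276, 1938, 1523 and 1470 CPM, with 1 of 6 genes higher in both high-fibre libraries. Smooth muscle markers summed to 888, 1496, 626 and 1060 CPM. The part of both lists in the pericyte levels and folds was not tested. Irf1 stood at 18.4, 12.8, 21.3 and 31.6 CPM (log2 -0.72) without overlap. Of the 27 ISGs, 4 lay below and 2 above without overlap, against 16.4% and 17.4% of all genes. Iigp1 stood at 16.8, 22.2, 19.5 and 46.0 CPM (-0.62), and only control-diet 2 was apart. Irf9, the DNA-binding part of the ISRE factor, stood at 33.6, 42.4, 40.8 and 67.5 CPM (-0.44) and Rtp4 at 16.8, 30.9, 22.2 and 44.5 CPM (-0.36), again with control-diet 2 the highest. DESeq2 called 0 ISGs in fibroblasts, macrophages, pericytes, T cells and B cells.

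T cells leaned the other way. None of 22 ISGs was called, against 0.0989% of all genes, but 20 had a fold above 0, the median was 0.34, and 8 had both high-fibre libraries above both control-diet libraries, against 16.4% of all genes. An unadjusted p under 0.05 was reached by 3, namely Ifitm3, Parp14 and Igtp, and by 4.05% of all genes. Igtp, a GTPase that interferon gamma induces, stood at 62.7, 48.2, 33.1 and 13.6 CPM (log2 0.98), and Parp14 at 58.8, 58.2, 26.3 and 40.7 CPM (0.96). Both were higher in both high-fibre libraries. Zbp1 stood at 28.7, 49.9, 25.1 and 22.6 CPM (0.65). Ifitm3 stood at 107, 165, 52.5 and 13.6 CPM (log2 1.68, SE 0.38, adjusted p = 0.37 in edgeR), but its log2 fold was -0.14 when T cells were taken by clusters in place of the gate. Neutrophil markers in the T gate summed to 35.6, 469, 1.14 and 0 CPM, with 5 of 5 genes higher in both high-fibre libraries. NK cell markers summed to 444, 713, 339 and 427 CPM, with 1 of 5 genes higher and 1 lower in both high-fibre libraries. Monocyte markers summed to 454, 713, 417 and 461 CPM. Fibroblast markers summed to 207, 286, 204 and 167 CPM and macrophage markers to 43.2, 88.3, 30.7 and 41.9 CPM. The part of these lists in the T cell values, Ifng included, was not tested. Ifng itself had 103, 38.2, 12.6 and 4.52 CPM, both high-fibre libraries being higher (log2 fold 2.73, SE 0.61, adjusted p = 0.469 in edgeR). These sums rest on 136, 117, 132 and 34 gated T cells.

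In B cells 0 of 25 ISGs were called, against 0.0697% of all genes, 3 stood at an unadjusted p under 0.05 against 3.53% of all genes, 19 had a fold below 0, and the median was -0.35. Neutrophil markers in the B gate summed to 114, 243, 498 and 1900 CPM, with 5 of 5 genes lower in both high-fibre libraries, and their part was not tested. For 8 both high-fibre libraries lay below both control-diet libraries, against 15.0% of all genes. Ifi27l2a stood at 650, 818, 793 and 1328 CPM (log2 -0.52), Xaf1 at 29.9, 37.1, 21.2 and 34.05 CPM (0.42) and Isg15 at 25.8, 8.11, 17.5 and 40.9 CPM (-0.39), and all 3 overlapped. Parp14 at 61.2, 76.5, 87.7 and 88.5 CPM (-0.37) did not. Ifit3 and Usp18 had the lowest unadjusted p and were picked out after their values were seen. Ifit3 stood at 0, 2.32, 12.0 and 23.8 CPM and Usp18 at 1.36, 3.48, 12.9 and 27.2 CPM. Carriers in the B gate numbered 0 of 298, 0 of 172, 2 of 213 and 1 of 50 cells in these libraries. The shares of 0 allow up to 1.01% and 1.74% of cells by the limit of 3 counts.

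The lean was not shown to differ between cell types. The within-library difference between endothelial cells and each other type was compared between diets with limma, and 0 ISGs and 0 genes of any kind passed for fibroblasts, macrophages, pericytes, T cells and B cells. At an unadjusted p under 0.05 in limma stood 2 of 36, 4 of 35, 3 of 27, 3 of 22 and 2 of 25 ISGs. The share of all genes at that p is not given, so these counts show nothing particular to the ISGs. The lowest adjusted p of an ISG in limma was 0.77, 0.919, 0.895, 0.964 and 0.998. Among the listed pathway genes outside the 39, edgeR called 1 over all types. This was Cxcl10, a chemokine that attracts T cells and that interferon gamma induces, which rose in high-fibre endothelial cells. It stood at 11.6, 11.7, 3.79 and 5.74 CPM there (log2 fold 1.31, SE 0.23, adjusted p = 0.0339 in edgeR), in contrast to 48 of 66 listed endothelial genes with folds below 0. In macrophages Cxcl10 stood at 198, 79.1, 178 and 88.7 CPM, with both repeats numbered 1 high and no separation by diet. Macrophage markers in the endothelial sums, given above, were higher in both high-fibre libraries too, and their part in the Cxcl10 value was not tested.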

How the data were processed

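The authors deposited whole-number UMI counts per gene and barcode, made with Cell Ranger 3.1.0 on the mm10 build per the submitters' processing notes. The 39 genes and the pathway and marker lists were chosen with earlier results of these data known, and support nothing by having been listed.

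Barcodes were kept with at least 500 UMIs, 250 genes and at most 20% mitochondrial UMIs. Copies of a barcode at or below 1/10 of its largest copy's UMIs in another library were removed, a step chosen after seeing the data. The highest-scoring barcodes against simulated doublets were removed (0.8% per 1000 barcodes). Gates needed, in 1 cell, Pecam1 and Cdh5 at 1 UMI each, Col1a1 at 1 and Dcn at 3, C1qa at 3, Kcnj8 and Vtn at 1 each, Cd3e at 1, or Cd79a at 2, and cells passing more than 1 gate entered no type. Clusters came from the Leiden method (scanpy 1.11.5, leidenalg 0.10.2, Python 3.11.15) on genes other than the 39, with no integration.

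UMI counts were summed per library and type, since cells are not replicates. Genes were tested with edgeR 4.0.16 after filterByExpr at a minimum of 10 counts (quasi-likelihood, robust, TMM, R 4.3.3). Differences of diet effects between types used limma on log2 CPM, and DESeq2 1.42.0 was an alternative. Adjusted p under 0.05 was the threshold, and the steps were tested on simulated data. Genes named with per-library values were the 4 highest of each type, the 4 largest diet folds at a mean of 20 CPM or more, and the largest carrier changes by the same minimum. Some genes are not reported here. Binomial intervals are exact, at 95%, and hold counting error alone. Alternatives tried were DESeq2, no low-count filter, each library left out, the replicate block, types by clusters, doublets kept, stricter gates, other seed and thinning depths and, added after seeing the data, low copies kept, cells of 1 sex and the 3 largest endothelial clusters.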

Additional observations from a re-analysis of the deposited data

How the results depend on the processing

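The higher level of ISGs in endothelial cells and their rise in carriers kept their direction and call in each alternative run, with 36 of 39 and 31 or 32 of 33 higher as each library was left out. DESeq2 called 3 ISGs lower in endothelial cells in place of 1 and 5 in macrophages in place of 3, and the T cell count of lower ISGs ran from 7 to 11 without 1 library. In carriers 0 ISGs were lower under DESeq2, at 3 or more seed UMIs and in the 3 largest clusters, and 0 to 1 without 1 library. Genes of all kinds higher in carriers numbered 138 under DESeq2, 145 in those clusters and 203 to 291 without 1 library. The diet gap in carrier share was 4.38 to 7.78 points without 1 library, 3.53 at 1000 UMIs, 11.9 not thinned (where control-diet cells are deeper) and 3.97 in female cells. The number of ISGs called for diet was less stable. Without the low-count filter edgeR called 4 in endothelial cells, 1 in T cells and 1 in B cells. With 1 library left out it called 0 to 10 in endothelial cells and 0 to 1 in each of fibroblasts, T cells and B cells. Repeat numbers share nothing stated in the labels. Over the tested genes, the deviations of same-numbered libraries from their group means correlated at 0.06 to 0.20 across the types. With the replicate block, endothelial calls were 2 (Ifit3b and Rsad2) and B cell calls 2 (Ifit3 and Usp18), and no other type gained a call. The share of all genes called with the block is not given either. The median diet fold (log2) over the ISGs tested in each setting ran, with 1 library left out, from -0.33 to -0.047 in endothelial cells, -0.10 to 0.076 in fibroblasts, -0.29 to 0.087 in macrophages, -0.59 to 0.03 in pericytes, 0.23 to 0.40 in T cells and -0.37 to -0.17 in B cells, and it was 0.45 in T cells taken by clusters. Single diet folds that turned sign with 1 library left out were Tgtp2 in endothelial cells (-1.10 to 0.59), Irf1 in fibroblasts (-0.10 to 0.82) and macrophages (-0.41 to 0.92), Iigp1 (-1.22 to 0.0019) and Rtp4 (-0.90 to 0.12) in pericytes, and Xaf1 (-0.036 to 0.63) and Isg15 (-1.63 to 0.082) in B cells. Ifitm3 in T cells turned to -0.14 with types by clusters, and the level fold of Gbp7 in pericytes was -0.078 to 0.0103 without 1 library and 0.0016 under DESeq2. The cause was not tested for these changes, except that leaving out a library removes samples and the 3 clusters hold fewer cells. Keeping the low barcode copies changed no call. Depth limits T cells most, where control-diet 2 gave 34 gated cells.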
